A study of Mus musculus with 10 samples.

Results

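The 50 genes described here act late in spermatogenesis or at fertilization. They comprise 7 genes of chromatin packaging, 7 of the sperm tail and midpiece, 9 of ion channels and cyclic AMP signalling, 3 of sperm glycolysis, 4 testis-specific serine kinases, 16 of the acrosome, egg binding and egg fusion, and 4 regulators of transcription and chromatin. They were chosen by name, from what they are known to do, with earlier results of these data known. All 50 were found among the 21755 protein-coding genes of chromosomes 1 to 19 and X in the GENCODE M21 annotation (GRCm38, mm10). Each gene was given a window, which is the gene body with 10 kb added on each side. A peak is a stretch of DNA that the study's peak caller found to be cut more often by the transposase than its surroundings. Peaks within 3 kb of a transcript start are called promoter peaks, and all the rest of a window's peaks are called other peaks. The 50 windows cover 3.69 Mb, or 0.14% of those chromosomes.

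Chromatin accessibility was mapped by ATAC-seq (transposase-accessible chromatin sequencing) in mature sperm of the cauda epididymis of wild-type C57BL/6JRccHsd mice, with 1 male per library. The F0 CD group (6 libraries by their titles) received a chow maintenance diet with 14% protein, and the F0 WD group (4 libraries) a Western diet with 40% of its kcal from fat and 43% from carbohydrates. The males were acquired at 3 weeks of age and were fed for 6 months, and no allele or drug was involved. A sentence in the labels' protocol gives the group sizes the other way round, and the titles were followed here. A bulk library cannot tell a change in sperm chromatin from a change in the share of residual cells of other types. The peak lists held 13366 to 29532 peaks. The shortest list was that of F0 WD replicate 4. The longest was that of F0 CD replicate 2, against 20127 peaks in the next longest list.

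Mammalian sperm replace most of their histones while the nucleus condenses. Transition proteins (Tnp1, Tnp2) take the place of histones in elongating spermatids, and protamines (Prm1, Prm2) then pack the DNA into a form that is not transcribed. The genes of the tail, acrosome and egg-binding machinery are transcribed in round spermatids, in part under CREM, a cyclic AMP response element modulator, and RFX2, a factor of ciliary genes. What is measured in mature sperm is therefore the chromatin that remains after these genes have been used.

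The accessible sites found in most libraries in these windows lay in tandem repeats, and their sequences are shown first. Each is 101 bases of the plus strand of GRCm38 around the strongest summit of the region, and capitals mark runs of at least 3 CA or TG units. The first 6 are regions found in 5 or more of the 10 libraries, the seventh is the recurring promoter site of Catsper3, and the last is the only peak found at the protamine genes.
Spaca3, promoter, chr11:80857822-80857922, 10 libraries: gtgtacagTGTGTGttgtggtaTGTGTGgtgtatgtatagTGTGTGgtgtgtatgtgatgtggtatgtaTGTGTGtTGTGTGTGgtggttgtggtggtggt
Spata16, intron, chr3:26830421-26830521, 9 libraries: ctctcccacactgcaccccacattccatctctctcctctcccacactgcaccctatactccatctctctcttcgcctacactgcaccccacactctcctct
Catsper3, downstream flank, chr13:55814373-55814473, 7 libraries: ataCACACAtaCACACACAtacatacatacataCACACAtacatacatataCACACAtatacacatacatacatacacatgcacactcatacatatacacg
Spag16, intron, chr1:70382052-70382152, 5 libraries: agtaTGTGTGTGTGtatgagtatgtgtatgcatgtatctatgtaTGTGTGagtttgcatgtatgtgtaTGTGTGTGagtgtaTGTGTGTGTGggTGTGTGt
Spata16, intron, chr3:26725298-26725398, 5 libraries: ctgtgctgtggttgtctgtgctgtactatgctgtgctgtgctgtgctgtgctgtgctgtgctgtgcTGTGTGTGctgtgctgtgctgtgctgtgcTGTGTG
Catsper4, promoter, chr4:134225066-134225166, 5 libraries: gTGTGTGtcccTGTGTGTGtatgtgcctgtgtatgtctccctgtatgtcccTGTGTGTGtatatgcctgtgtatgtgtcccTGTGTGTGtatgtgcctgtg
Catsper3, promoter, chr13:55785293-55785393, 3 libraries: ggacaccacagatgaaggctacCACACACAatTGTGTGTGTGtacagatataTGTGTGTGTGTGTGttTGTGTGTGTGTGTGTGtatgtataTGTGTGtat
Prm1 and Prm2 windows, chr16:10804533-10804633, 1 library: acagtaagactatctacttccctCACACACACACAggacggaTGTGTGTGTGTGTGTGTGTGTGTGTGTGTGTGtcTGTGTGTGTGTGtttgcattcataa
A TG or CA run of at least 3 units stood in 6 of the first 7. Runs that short are common, since the median longest run over all 113254 regions of the genome was 3 units. A run of at least 10 units was held by 3 of the 7 regions of these windows found in 5 or more libraries (42.9%). Over the genome the share was 56.6% of 6480 such regions. The intronic Spata16 site held a longer tandem unit with no run of 3 CA or TG units in these bases.

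Peaks in the windows were few. A window peak was found in at least 1 library for 43 of the 50 genes (86%, against 78.8% of all protein-coding genes) and in at least 2 libraries for 32 (64%, against 60.5%). A promoter peak was found in at least 1 library for 19 genes (38%, against 41.4%), in at least 3 libraries for Catsper3, Catsper4 and Spaca3 (6%, against 9.48%), and in all 10 libraries for Spaca3 alone (2%, against 0.326%). The genes with no peak in any library were Prm3, Tnp1, Tnp2, H1fnt, Pgk2, Zpbp2 and Spam1. The other 18 members with a promoter peak had theirs in 1 to 5 libraries, and 11 of the 43 had window peaks in a single library. Per length, the median gene had 4.74 window peaks per Mb and library, and the median of all protein-coding genes was 5.32. There were 23 of 50 members above that value. In 9 of the 10 libraries the windows held fewer peaks per Mb than chromosomes 1 to 19 and X as a whole, with ratios from 0.655 to 1.10.

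**Figure D1:**
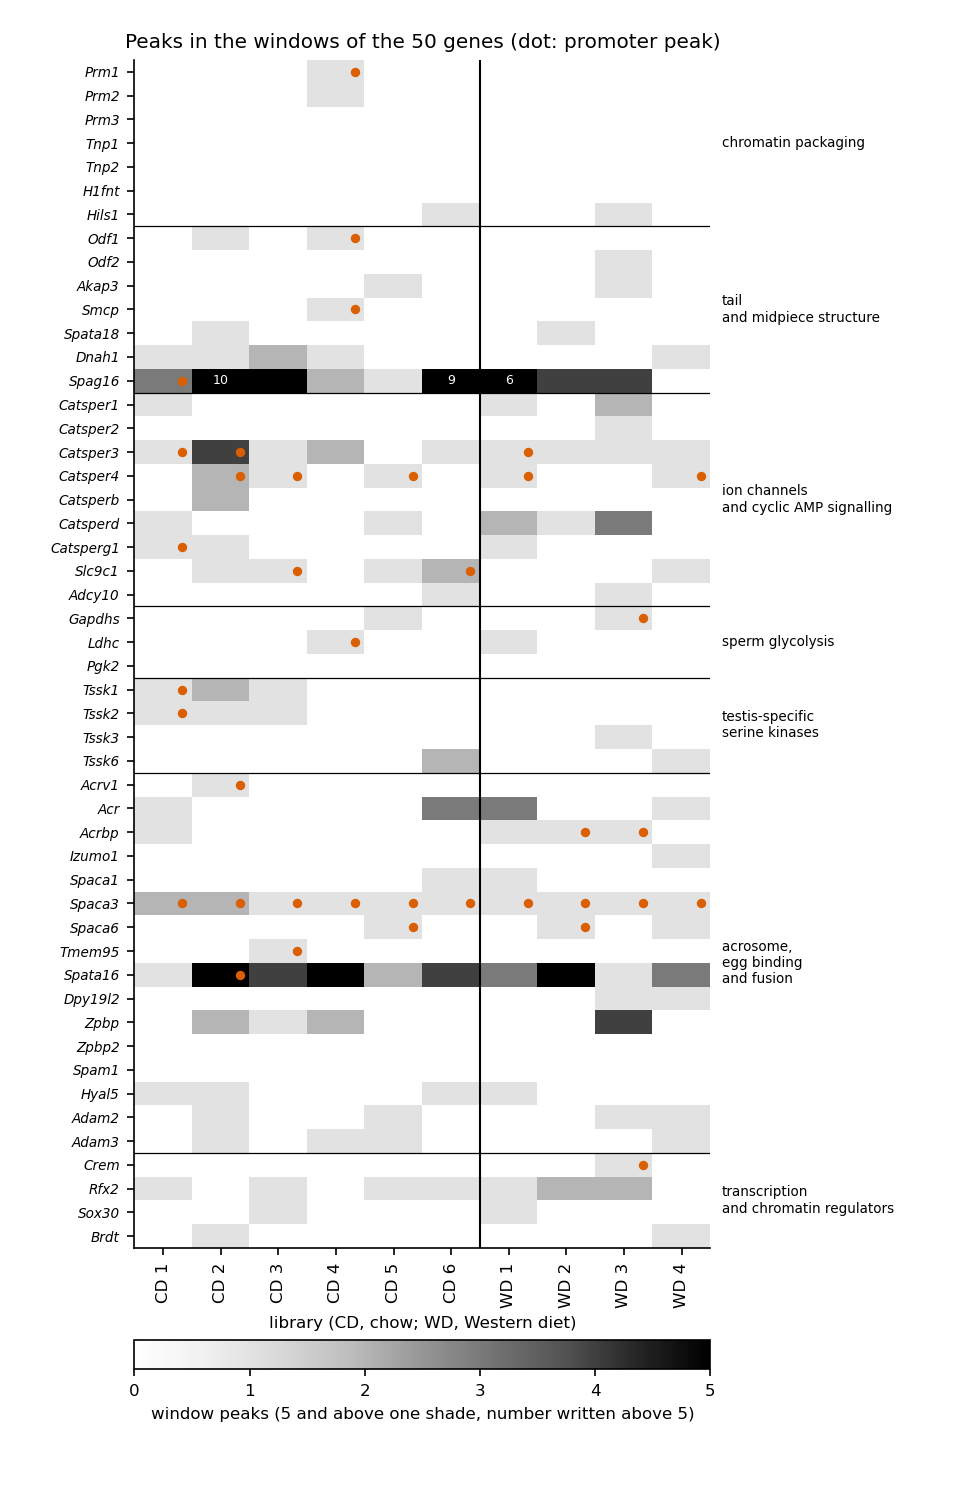
Number of window peaks of each of the 50 genes (rows, by function) in each library (columns, F0 CD left of the line and F0 WD right of it), as shades of grey, with a dot where 1 or more of the peaks are promoter peaks. Spaca3 has a promoter peak in all 10 libraries, Spag16 and Spata16 have dark rows, and Prm3, Tnp1, Tnp2, H1fnt, Pgk2, Zpbp2 and Spam1 are blank.

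The calls rested on little coverage. Reads piled up at a summit, recovered from the deposited fold and p, numbered 9 to 34 in member windows with a median of 15, and the fewest at any called summit of a library were 9 to 13. The lowest background a call was tested against was 2.46 to 4.42 reads in F0 CD libraries and 2.11 to 3.71 in F0 WD libraries. The caller extended each end of a fragment as a read of its own, so both ends of a short fragment can count at 1 summit and these are not numbers of fragments. A site with fewer reads is not detectable in such lists, so a gene with no peak was not shown to be closed. Only 13 of 219 peaks (5.94%) were among the best 10% of their own list by p.

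Of the chromatin packaging genes, 3 of 7 carried any peak. Their windows are short and partly shared and cover 0.101 Mb in all. They held 3.30 ± 5.12 peaks per Mb and library under CD and 2.48 ± 4.95 under WD. The median gene of the group had 0 window peaks per Mb and library, against 5.32 for all protein-coding genes. With 0 or 1 peak in each library, these windows cannot show whether the group differs from other genes. Prm1 (ENSMUSG00000022501.6, chromosome 16, 10796326 to 10805839, minus strand) encodes protamine 1 and had a promoter peak in 1 of 10 libraries, F0 CD replicate 4, with 17 reads at the summit and a fold of 4.74 over background. Prm2, the second protamine gene, shares that peak, because the windows of Prm1, Prm2, Prm3 and Tnp2 overlap in 1 cluster. The site lies 1152 bases inside a long annotated Prm1 transcript and 7665 bases before the RefSeq start of Prm1, on a TG run of 16 units, printed above. No peak was therefore found within 3 kb of the RefSeq start of either protamine gene. Tnp1, on chromosome 1, and Tnp2, beside the protamines, had 0 peaks in all 10 libraries, as had Prm3 and the spermatid linker histone gene H1fnt. Hils1, a second spermatid linker histone, had 1 other peak each in F0 CD replicate 6 and F0 WD replicate 3, at different places on either side of the gene.

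The tail and midpiece genes had a peak in 7 of 7 windows, but 44 of the group's 58 peaks were in Spag16. Spag16 encodes a protein of the central pair of the axoneme and spans 898 kb of chromosome 1 (69826970 to 70725132). Its window held 3, 10, 5, 2, 1 and 9 peaks in F0 CD replicates 1 to 6, and 6, 4, 4 and 0 in F0 WD replicates 1 to 4. The lowest count was in F0 WD replicate 4, whose list is the shortest, and the highest in F0 CD replicate 2, whose list is the longest. The diets overlapped. Per Mb, Spag16 had 4.79 peaks per library, below the median of all genes. Dnah1, an inner dynein arm heavy chain, had 1, 1, 2, 1, 0 and 0 peaks under CD and 0, 0, 0 and 1 under WD. Odf1 and Smcp, for the outer dense fibres and the mitochondrial capsule, had promoter peaks in F0 CD replicate 4 alone. Odf2, Akap3 and Spata18 had 1 or 2 other peaks over all libraries.

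The ion channel and signalling genes had a peak in 9 of 9 windows and promoter peaks in 4. CATSPER is the calcium channel of the sperm tail that drives hyperactivated swimming, and Catsper3 and Catsper4 encode 2 of its pore subunits. Catsper3 (chromosome 13, 55784568 to 55808998) had a promoter peak in F0 CD replicates 1 and 2 and F0 WD replicate 1, 613 bases after the start. A second site, 5220 bases past the end of the gene, recurred in 7 libraries, 4 of CD and 3 of WD, with 13 to 20 reads. Catsper4 (chromosome 4, 134211970 to 134227383, minus strand) had promoter peaks in 5 libraries, namely F0 CD replicates 2, 3 and 5 and F0 WD replicates 1 and 4. They fell in 1 region that begins 2083 bases after the start and is 97.3% repeat-masked. The pore gene Catsper1 had 1 other peak in 2 libraries and 2 in F0 WD replicate 3, and Catsper2 had 1 in that library alone. Catsperd, an accessory subunit, had 1, 0, 0, 0, 1 and 0 peaks under CD and 2, 1, 3 and 0 under WD. Slc9c1, the sperm sodium and proton exchanger, had promoter peaks in F0 CD replicates 3 and 6, at different places. Of these sites, 1 lies 3290 bases from the RefSeq start and is near a GENCODE start only. Adcy10, the soluble adenylyl cyclase, had 1 other peak in each of 2 libraries.

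In sperm glycolysis, Gapdhs and Ldhc each had 1 promoter peak in 1 library, F0 WD replicate 3 and F0 CD replicate 4 respectively, and Pgk2 had 0 peaks. The 4 testis-specific serine kinases had 8 peaks in all. Tssk1 and Tssk2 are neighbours and share 1 promoter peak in F0 CD replicate 1, at a site that is also within 3 kb of a start of Dgcr2. Tssk1 had window peaks in 3 CD libraries and 0 WD libraries, with counts of 1, 2, 1, 0, 0 and 0 under CD.

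The acrosome and egg-binding genes held the site found in most libraries. Spaca3 (ENSMUSG00000053184.15, chromosome 11, 80858365 to 80867814), a lysozyme-like protein of the acrosome, had 1 promoter peak in each of the 10 libraries, in a region of 569 bases at chr11:80857480-80858048 that ends 317 bases before the start. Its summits had 15, 18, 17, 13, 34 and 26 reads in F0 CD replicates 1 to 6 and 20, 13, 12 and 19 in F0 WD replicates 1 to 4. The fold over background ran from 3.06 to 6.16, the diets overlapped, and in 5 libraries the peak stood in the weaker part of the list, between 65.6% and 86.9% of the way down by p. The region held a CA or TG run of 18 units. Spaca3 also had 40.7 window peaks per Mb and library, the highest of the 50, followed by Acr with 30.5, Catsper3 with 29.3, Catsper4 with 16.9 and Tssk1 with 16.9.

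Spata16, which is needed to form the acrosome, had window peaks in all 10 libraries. The gene is 346 kb long (chromosome 3, 26637620 to 26983212), and its window held 1, 5, 4, 5, 2 and 4 peaks under CD and 3, 5, 1 and 3 under WD. An intronic region at chr3:26830059-26830622 was found in 9 libraries, all but F0 CD replicate 1, with 10 to 22 reads. A second intronic region was found in 4 CD libraries and 1 WD library. Acr, the acrosin protease, had 1, 0, 0, 0, 0 and 3 peaks under CD and 3, 0, 0 and 1 under WD, none at its promoter. Zpbp, a zona pellucida binding protein, had 0, 2, 1, 2, 0 and 0 peaks under CD and 0, 0, 4 and 0 under WD. Izumo1, the sperm ligand of egg JUNO, had 1 other peak, in F0 WD replicate 4, and that site is within 3 kb of a start of Fgf21. Tmem95, which also acts in egg fusion, had 1 promoter peak and Spaca6 had promoter peaks in 2 libraries at different places, while Spam1 and Zpbp2 had none. The fertilin gene Adam2 and Adam3 had a single other peak in each of 4 libraries.

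Among the regulators, Rfx2 had 1, 0, 1, 0, 1 and 1 peaks under CD and 1, 2, 2 and 0 under WD. Its 9 peaks were at 9 different places, so none recurred. Crem had 1 promoter peak, in F0 WD replicate 3. Sox30, a spermatid transcription factor, and Brdt, a bromodomain protein of histone removal, each had 1 other peak in 1 CD and 1 WD library.

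**Figure D2:**
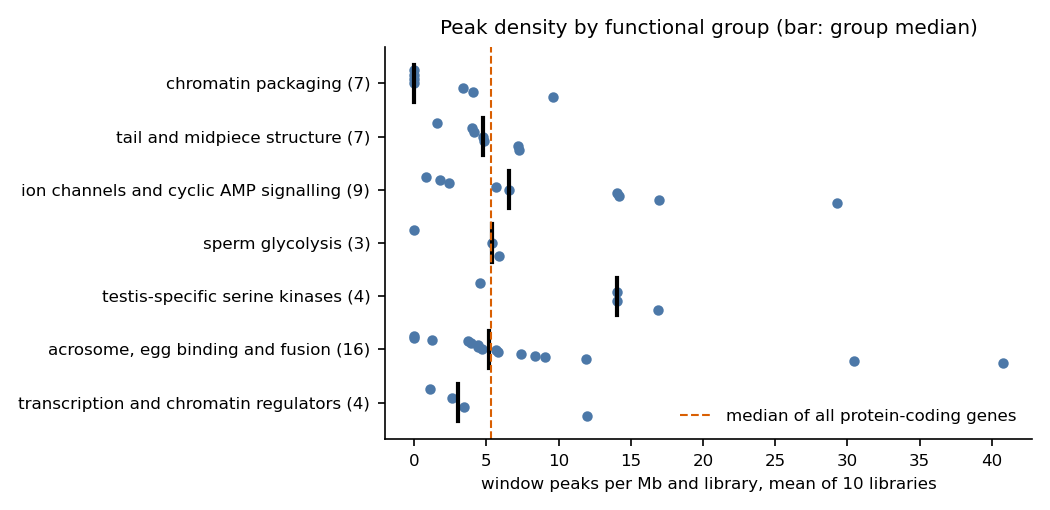
Window peaks per Mb and library (mean of 10 libraries) for each of the 50 genes, by functional group with the number of genes in brackets, black bars at the group medians and a dashed line at the median of all protein-coding genes, 5.32. Chromatin packaging has a median of 0, and the points farthest right are Spaca3 at 40.7, Acr at 30.5 and Catsper3 at 29.3.

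The place of the peaks in the genes was examined next. Overlapping peaks of the 10 libraries were merged into 153 regions in the 50 windows. Of these, 78 were in introns (51.0%), 24 in the upstream and 21 in the downstream flank, 21 at promoters and 9 over exons outside promoters. There were 126 regions of a single library and 27 of 2 or more libraries, which is 17.6% against 21.7% of all 113254 regions. Spag16 had 7 of the 27 and Spata16 had 6, all intronic, so 13 of 27 were in the longest gene and the second longest. Another protein-coding gene started within 3 kb of 3 of the 21 promoter regions and of 15 regions elsewhere. Of the 21 promoter regions, 18 were found in a single library. RefSeq starts were at hand for 19 of them, and 13 lay within 3 kb of one, while 6 were near GENCODE starts only, among them both regions of Acrbp and of Spaca6.

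**Figure D3:**
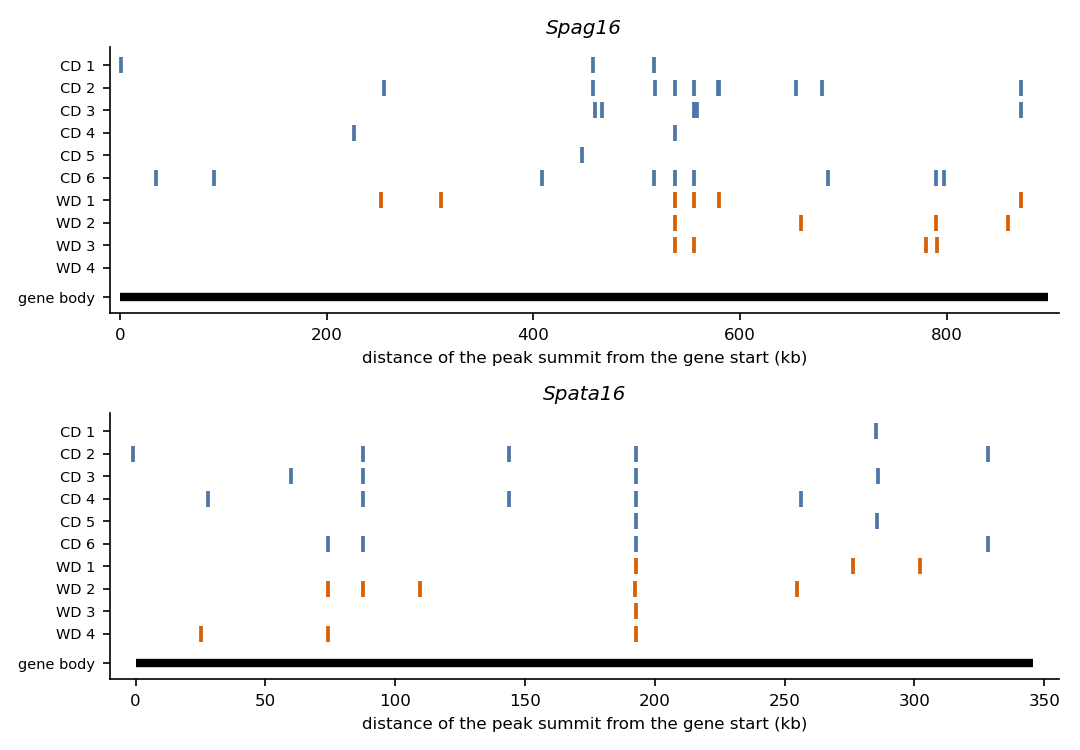
Summits of the window peaks of Spag16 (top) and Spata16 (bottom) in each library (rows, F0 CD blue and F0 WD orange) by distance from the gene start in kb, with the gene body as a black bar. Vertical alignments mark recurring sites, among them the Spata16 region of 9 libraries.

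Regions that recurred held long dinucleotide runs in a larger share than regions of a single library. Recurring regions were also wider, with a median of 328 bases against 208.5, and over the genome 356 against 214. The part of width in that share was not tested. A CA or TG run of at least 10 units was present in 23 of 126 single-library regions (18.3%, against 18.5% of all such regions) and in 14 of 27 regions of 2 or more libraries (51.9%, against 46.9%). Within the 27 the share was 64.3% for 2 libraries and 38.5% for 3 or more, while over the genome it was 39.5% and 53.1%. The median repeat-masked share was 19.3% in single-library regions and 63.2% in regions of 2 or more libraries, and over the genome 21.5% and 69.9%. The windows held 388 such runs, or 105 per Mb against 102 per Mb genome-wide, and 51 of them (13.1%) carried a peak in at least 1 library, against 14.6% of all runs. Tnp1 and Spam1 were the members whose window had no run, and both had no peak. Of the 48 members with a run, 32 had a window peak in 2 or more libraries. These counts describe which sites were listed, and the part of repeat mapping in them was not tested.

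**Figure D4:**
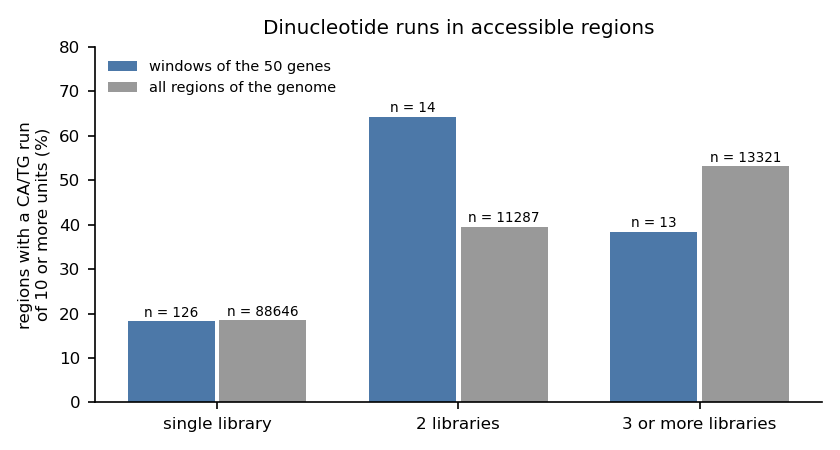
Share of regions that hold a CA or TG run of 10 or more units, for regions found in a single library, in 2 libraries and in 3 or more libraries, in the windows of the 50 genes (blue) and over the genome (grey), with the number of regions above each bar. In the windows the share is 18.3%, 64.3% and 38.5%, and over the genome 18.5%, 39.5% and 53.1%.

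The diets were then compared. Counting each peak once, promoter peaks of the 50 genes numbered 5, 6, 4, 5, 3 and 2 in F0 CD replicates 1 to 6 and 3, 3, 4 and 2 in F0 WD replicates 1 to 4, which is 4.17 ± 1.47 (SD, n = 6) and 3.0 ± 0.816 (SD, n = 4). The difference, WD minus CD, was -1.17 with a standard error of 0.726, and the ranges overlapped. Other peaks numbered 11, 33, 16, 13, 10 and 25 under CD and 22, 14, 25 and 14 under WD, or 18 ± 9.12 and 18.8 ± 5.62, a difference of 0.75 with a standard error of 4.67. Lists differ in length, and as a share of the library's list the windows held 0.115% ± 0.0162 under CD and 0.127% ± 0.0195 under WD, a difference of 0.0119 percentage points with a standard error of 0.0118. Without F0 CD replicate 2, the library with the longest list, the differences were -0.80 promoter peaks, 3.75 other peaks and 0.0153 percentage points. Without F0 WD replicate 3 they were -1.5 promoter peaks, -1.33 other peaks and 0.00311 percentage points. These sums are described without a test.

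**Figure D5:**
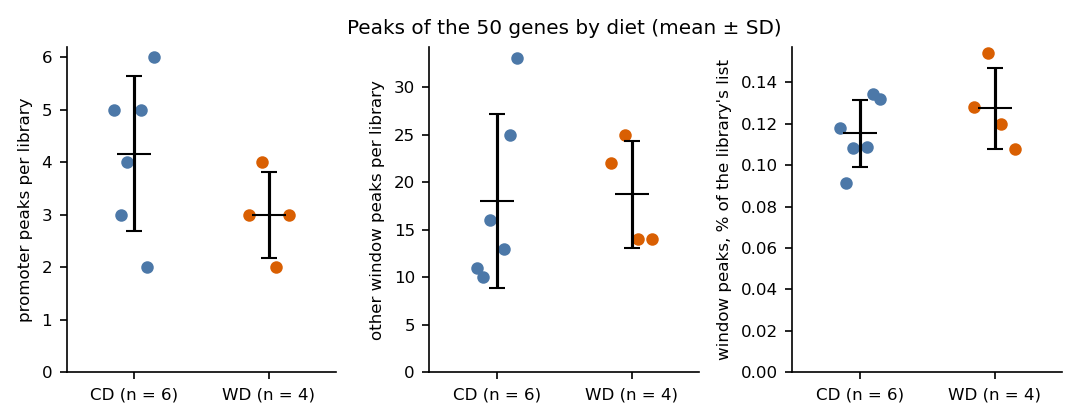
Promoter peaks, other window peaks and window peaks as a percent of the library's list, summed over the 50 genes, with 1 point per library (F0 CD blue, n = 6, F0 WD orange, n = 4) and black bars for the mean ± SD. The points of the diets overlap in all 3 panels.

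By function, the acrosome and egg-binding genes had 8.50 ± 2.74 window peaks per library under CD and 9.25 ± 0.957 under WD, and the tail genes had 6.67 ± 3.93 and 4.50 ± 2.38. The ion channel genes had 4.33 ± 2.88 and 4.75 ± 2.75, and the regulators had 1.00 ± 0.632 and 2.00 ± 0.816. The serine kinases had 1.00 ± 0.894 and 0.50 ± 0.577, and the glycolysis and chromatin packaging genes each stayed below 1 per library on average. Window peaks were found under both diets for 28 members, in CD libraries alone for 9 and in WD libraries alone for 6. These are 65.1%, 20.9% and 14.0% of the 43 members with a window peak, against 64.3%, 24.5% and 11.2% of all genes with one. For promoter peaks the numbers were 4, 12 and 3, or 21.1%, 63.2% and 15.8%, against 32.3%, 44.2% and 23.5% of all genes with one. There were 6 libraries to find them in under CD and 4 under WD.

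No member differed between the diets by the tests used. Of the 32 members with window peaks in 2 or more libraries, 18 had a higher (56.3%) and 14 a lower mean count under WD (43.8%), against 43.9% and 51.3% of all genes tested. The median difference was 0.0833 peaks for members and -0.0833 for all genes tested. A gene with 1 peak in 1 library of each diet has a difference of 0.0833, because 1 of 4 is a larger share than 1 of 6. Hils1, Akap3, Spata18, Adcy10, Gapdhs, Ldhc, Spaca1, Sox30 and Brdt were among the 18 in this way. The same holds for genes outside the list, and the share of such differences over all genes tested was not counted. The split was not tested and is not read as a lean toward WD. Of the 32, 0 passed an unadjusted p of 0.05 in a two-sided exact permutation test over all 210 assignments of libraries to diets. Of all 13169 genes tested, 0.668% passed with more and 0.683% with fewer peaks under WD, and 0 had a Benjamini-Hochberg adjusted p below 0.05. The lowest p among members was that of Catsperd, with 0.333 ± 0.516 peaks under CD and 1.5 ± 1.29 under WD (difference 1.17, standard error 0.679, exact permutation p = 0.114, adjusted p = 1). Dpy19l2, which anchors the acrosome to the nucleus, had 0 peaks in 6 CD libraries and 1 in each of F0 WD replicates 3 and 4 (exact permutation p = 0.133). The test can give no lower p to a member with peaks in only 2 libraries, so such members could not pass 0.05. Besides Dpy19l2 these were Hils1, Odf1, Akap3, Spata18, Adcy10, Gapdhs, Ldhc, Tssk6, Spaca1, Sox30 and Brdt. Acrbp, the proacrosin binding protein, had 0.167 ± 0.408 and 0.75 ± 0.50 peaks (exact permutation p = 0.190). Without F0 WD replicate 4 the unadjusted exact permutation p was 0.0357 for Catsperd and 0.0476 for Acrbp, and without F0 CD replicate 1 it was 0.0476 for Acrbp, each with an adjusted p of 1.

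Promoter detection could be tested for the 6 members with promoter peaks in 2 or more libraries, namely Catsper3, Catsper4, Slc9c1, Acrbp, Spaca3 and Spaca6. By two-sided Fisher's exact test 0 of 6 passed an unadjusted p of 0.05, against 1.13% of 4082 genes, and none of those genes passed after adjustment. The lowest exact p was 0.133, for Acrbp, with promoter peaks in 2 of 4 WD libraries and 0 of 6 CD libraries, at 2 different places. Of the 27 recurring regions in the windows 0 passed, against 1.03% of 24608 regions, with a lowest exact p of 0.133 and 0 regions of the genome after adjustment. There were 21 recurring regions found under both diets, 5 found under CD alone and 1 under WD alone, upstream of Catsper1. These are 77.8%, 18.5% and 3.70%, against 72.8%, 21.9% and 5.28% of all 24608 recurring regions. With 6 and 4 libraries Fisher's test can reach an exact p of 0.00476 when a site is in every library of 1 diet and none of the other. For a site in only 2 libraries it cannot go below 0.133. The 14 regions of 2 libraries among the 27 could therefore not pass, nor could the promoters of Slc9c1, Acrbp and Spaca6. Spaca3, with a promoter peak in every library, could not differ by this test, so only Catsper3 and Catsper4 of the 6 could have passed.

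A second list of 50 genes of late spermatogenesis was counted in the same way, and none of them is a member. Window peaks were found for 41 of them (82%, against 78.8% of all genes) and promoter peaks for 20 (40%, against 41.4%). Promoter peaks in 3 or more libraries were found for 6 (12%, against 9.48%), namely Cfap43 in 7, Chd5, Theg, Prss55 and Dnah8 in 4 each, and Ropn1 in 3. These include the axonemal genes Cfap43 and Dnah8 and Chd5, a remodeller of spermatid chromatin. The list had 24.5 ± 8.69 window peaks per library under CD and 22.0 ± 3.16 under WD, a difference of -2.50 with a standard error of 3.88. Among markers of other cells, window peaks were found for 10 of 15 genes of epididymal epithelium (66.7%), 9 of 10 of spermatogonia and spermatocytes (90%) and 9 of 10 of leukocytes (90%), against the 78.8% of all genes. Promoter peaks in at least 1 library were found for 4 (26.7%), 5 (50%) and 9 (90%) of them, against 41.4%. Of these markers only the epididymal Gpx5 had promoter peaks in 3 or more libraries, 4 in all. The epididymal list had 4.33 ± 1.03 window peaks per library under CD and 3.5 ± 1.29 under WD. The leukocyte list had 4.17 ± 3.31 and 4.75 ± 2.22, and the list of spermatogonia and spermatocytes 6.0 ± 2.37 and 6.0 ± 2.58. Promoter peaks per library, in the same order of lists, were 1.0 ± 0.894 under CD and 0.5 ± 0.577 under WD, 1.33 ± 1.21 and 1.0 ± 1.41, and 0.5 ± 0.548 and 1.5 ± 1.0. The part of such cells in the members' peaks was not tested.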

How the data were processed

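The authors deposited 1 MACS2 peak list per ATAC-seq library. Per the study's methods and notes, reads were trimmed (Trim Galore 0.6.10), aligned to mm10 (Bowtie2 2.4.5), freed of duplicates (Picard 2.24.0), filtered, shifted for the transposase offset, limited to short fragments and called per library at q 0.05 (MACS2 2.2.7.1). Each deposited peak has an integer score, a fold enrichment over local background, and −log10 p and q values at its summit. The deposited score, fold and −log10 values set thresholds and read counts only, and peak positions gave the counts. Reads at the summit, where each end of a fragment counts as a read, were solved from the fold (pseudocount 1) and the Poisson p to within 0.001, for at least 99.8% (rounded) of each library's summits with −log10 p below 60.

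A peak belonged to a window it overlapped by at least 1 bp. Peaks of a library with several summits were counted once. Members and lists were chosen with earlier results of these data known. Per-library values are given for the protamine and transition protein genes, members with promoter peaks in 3 or more libraries, the 8 with most window peaks, the 3 with the lowest window p, and the 5 densest. Other members are given where a group or count needed them, chosen after their values were seen. Window counts were compared by exact permutation and detection by Fisher's exact test, in genes or regions seen in at least 2 libraries, with Benjamini-Hochberg adjustment over all of them. Promoter sequences are RefSeq's (GRCm38.p6). Python 3.11.15, SciPy 1.17.1, pysam 0.24.0 and samtools 1.23.1 were used, and the tests were tried on simulated data. Alternatives were stricter q, lists of equal length, summit placement, other window and promoter widths, mid-p, other merging, a replicate block and each library left out. The sequence of 1 further recurring region is not reported here.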

Additional observations from a re-analysis of the deposited data

Results flagged for a closer look

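Library values that stood apart from the rest of their diet, by Dixon's test at 95%, were found in 4 of 34 sets of values tested. Chance alone gives about 1 in 20 for continuous values, but most of these sets were small counts with ties. A set with a single count above 0, as for Zpbp and chromatin packaging under WD, is flagged whatever that count is. The 4 of 34 can therefore not be read as an excess. Window peaks of the ion channel and signalling genes were 10 in F0 CD replicate 2, the library with the longest list, against 4 in the next CD library. Zpbp had 4 window peaks in F0 WD replicate 3 and 0 in the other WD libraries. Acr had 3 window peaks in F0 CD replicate 6 and 1 in the next CD library. The chromatin packaging genes had 1 window peak in F0 WD replicate 3, at Hils1, and 0 in the other WD libraries, which is a difference of a single peak.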

How the results depend on the processing

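The difference between diets in the share of peaks, WD minus CD, was 0.0119 percentage points and ran from -0.00271, with no extension of the gene body, to 0.0185, and from 0.00311, without F0 WD replicate 3, to 0.0185, without F0 WD replicate 2, with 1 library left out. That in promoter peaks (-1.17) ran from -2.0 to -0.333, and with 1 library left out from -1.60 to -0.80. That in other peaks (0.75) ran from -1.33, without F0 WD replicate 3, to 3.75, without F0 CD replicate 2, and was 3.0 with lists of equal length. None of these moved by more than 1 SD between libraries, and the sign of the share and of other peaks depended on the setting. Replicate numbers gave no pairing: the deviations of same-numbered libraries correlated at -0.104, 0.0446, -0.0221 and 0.0545, and 1 of 4 WD libraries was closest to its own number. The replicate block over numbers 1 to 4 gave 0.0106 percentage points, -2.0 promoter peaks and 0.50 other peaks. The number of members with an unadjusted window p below 0.05 was 0 to 2 with 1 library left out (1 without F0 CD replicate 1, Acrbp, and 2 without F0 WD replicate 4, Catsperd and Acrbp) and 0 under the 6 other alternatives run. The counts for promoter detection and for regions were 0 under all 14 and 15 alternatives. Promoters taken as 1 kb left 10 of 50 members with a promoter peak in place of 19, against 21.7% of all genes. Window peaks were found for 33 of 50 members with no extension of the gene body, the fewest, against 61.5% of all genes. With 20 kb they were found for 47, the most, against 86.9%. For the other late genes they were found for 40 of 50 at q under 0.01 and 37 with lists of equal length, against 76.0% and 70.5% of all genes. These alternatives were added after the data were seen. Depth limits all counts, since the weakest peaks rest on 9 to 13 reads.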

Other observations

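Promoter sequences of 300 bases, from 250 before to 50 after each RefSeq start, were at hand for 43 of the 50 genes. Their median ratio of observed to expected CpG was 0.313, against 0.589 over 16433 genes, and 12 of 43 lay above the latter. Hils1, Akap3, Smcp, Spam1 and Hyal5 had 0, Prm1 had 0.0487, Catsper4 had 0.123, Prm2 had 0.137 and Spaca3 had 0.468. Over all genes a promoter peak in 3 or more libraries was found for 9.64% of those below the median ratio and 9.80% of those at or above it. For 1 or more libraries the shares were 39.7% and 44.1%. The palindromic cyclic AMP response element TGACGTCA, which reads alike on both strands, was present in 1 of the 43, Izumo1, 96 bases before the start, and in 2.65% of all genes. Only this exact sequence was searched for, within the 300 bases, so the count does not cover other forms of the element.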
